A study of Homo sapiens with 8 samples.

Results

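The genes described here are 9 RAS family GTPases, *HRAS*, *NRAS*, *RRAS*, *RRAS2*, *MRAS*, *RAP1A*, *RAP1B*, *RALA* and *RALB*, out of 43317 genes on the array, and they were read by 12 of its 58201 probes. They were taken by gene name as a family around *RRAS2*, which was chosen by its measured ratio in T24 cells transfected with miR-140-3p, so that ratio is a description and carries no test. Each of 8 two-colour microarrays set Cy3-labelled RNA of untransfected (mock) cells against Cy5-labelled RNA of treated cells of the same line. PC3, a prostate cancer line, was given bisamide, a small molecule that binds the nuclear protein pirin, for 24 h or for 48 h, or was transfected with miR-125b-1-3p. C4-2, a derivative of the prostate cancer line LNCaP, received miR-199-3p; 786-O, a renal cancer line, received miR-532-5p or miR-532-3p; and T24, a bladder cancer line, received miR-140-5p or miR-140-3p. Every treatment had 1 array and no dye swap, so no ratio of treated over mock carries a replicate error or a p-value, and dye bias was not tested.

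RAS proteins are membrane-bound switches that are on when they hold GTP and off when they hold GDP. Exchange factors such as SOS1 turn them on and GTPase-activating proteins such as NF1 turn them off. HRAS and NRAS pass growth factor signals to the RAF, MEK and ERK kinases. RRAS, RRAS2 (TC21) and MRAS form the R-RAS branch and act on adhesion, phosphoinositide 3-kinase and RAF dephosphorylation. RAP1A and RAP1B control integrins and cell junctions, and RALA and RALB act on the exocyst and on membrane traffic. T24 is the line from which an activated *HRAS* was isolated.

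The transfected miRNAs are shown because each is the agent of a comparison below, with bases 2 to 8, the seed that pairs with a target mRNA, in capitals. All 6 seeds differed from each other. The mature sequences are those of RefSeq (GRCh38.p14), and miR-199-3p has the same letters in its miR-199a and miR-199b forms.
miR-140-5p, chr16:69933103-69933124, plus strand: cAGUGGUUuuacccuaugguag
miR-140-3p, chr16:69933142-69933162, plus strand: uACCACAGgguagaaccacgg
miR-199-3p, from hairpins on chromosomes 1, 9 and 19: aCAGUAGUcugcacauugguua
miR-125b-1-3p, chr11:122099769-122099790, minus strand: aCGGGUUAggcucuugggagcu
miR-532-5p, chrX:50003167-50003188, plus strand: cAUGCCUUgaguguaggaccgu
miR-532-3p, chrX:50003204-50003225, plus strand: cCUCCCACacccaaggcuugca

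The 7-base complements of these seeds were searched in the probe sequences as the files give them (sense strand, not the reverse), as AACCACT for miR-140-5p, CTGTGGT for miR-140-3p, ACTACTG for miR-199-3p, TAACCCG for miR-125b-1-3p, AAGGCAT for miR-532-5p and GTGGGAG for miR-532-3p. None of the 12 member probes held any of them, and only 0.0361% (TAACCCG) to 0.607% (CTGTGGT) of all 58201 probes held one. With shares this low, none among 12 probes is no contrast to all probes. The transcripts outside the probes were not analysed here.

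All 12 probes matched RefSeq by accession to the gene named in the files, and all 9 genes were well above background in both channels on all 8 arrays, so no filter removed a member. *RRAS2* had 2 probes on GRCh37, at chr11:14299479-14299538 and chr11:14299466-14299525 on the minus strand, which shared 47 bases and differed by 1 base within them. They are therefore not independent readings. The 2 *RAP1B* probes shared 14 bases, and the 2 *NRAS* probes did not overlap. The *HRAS* probe covered 213 bases of the genome (chr11:533600-533812) with its 60 bases and so crosses a splice junction, and it was printed as 10 spots on every array. The single *RALA* probe lay at chr7:39747399-39747458. Whether the probes lie in coding sequence or in a UTR was not analysed here.

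Between 15442 and 19241 genes per array were well above background in both channels, and no spot was saturated. Mock channels of the same line correlated at r = 0.991 to 0.999 (5 pairs, across genes) and those of different lines at 0.876 to 0.936 (23 pairs). All 7 prostate luminal markers, *KLK3* included, were well above background in the C4-2 mock and 4 of 7 in all PC3 mocks, and all 4 renal markers were so in 786-O. In T24 2 of 6 urothelial markers were well above background, *PPARG* with raw Cy3 signals up to 130 and *UPK1A* up to 37.9, and *UPK1B*, *UPK2*, *UPK3A* and *GATA3* were not. Of 4 renal markers 3 were so in T24, with raw Cy3 signals up to 619 for *PAX2*, 423 for *PAX8* and 30.2 for *CDH16*. Of 4 leukocyte markers 3 were well above background in T24 and 2 in each other line, and of 3 endothelial markers 2 were so in T24 and in PC3, 1 in C4-2 and 0 in 786-O, all with raw Cy3 signals of at most 57.7. The part of these markers in the results below was not tested.

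The first comparison asked how each treatment changed the 9 transcripts. Of the 72 ratios (9 genes on 8 arrays), 67 lay within 0.5 of 0 on the log2 scale, 5 lay beyond 0.5 and 2 beyond 1.0. Those 2 were *RRAS2* with miR-140-3p and *RALA* with miR-140-5p, both lower and both in T24. The other 3 were *RRAS2* and *RAP1B* with miR-199-3p, both lower, and *RAP1B* with miR-532-5p, higher. No member passed 0.5 on either bisamide array, where 1.45% (24 h) and 1.79% (48 h) of all genes well above background did, with miR-125b-1-3p (2.65% of all genes) or with miR-532-3p (5.55%). Beyond 0.5 were 2 of 9 members with miR-199-3p against 4.49% of all genes, 1 of 9 with miR-532-5p against 7.27%, and, in T24, 1 of 9 against 4.63% for the 5p and 1 of 9 against 2.09% for the 3p strand of miR-140. The last count rests on *RRAS2*, which was chosen for it. Below −1.0 on the T24 arrays were 0.323% of all genes for the 5p strand of miR-140 and 0.0856% for the 3p strand. The median ratio of the 9 members was between −0.08 (miR-140-5p) and 0.22 (miR-532-5p), and that of all genes within 0.02 of 0. In RNA of a whole culture, fewer cells with a transcript and less of it per cell cannot be told apart.

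**Figure D1:**
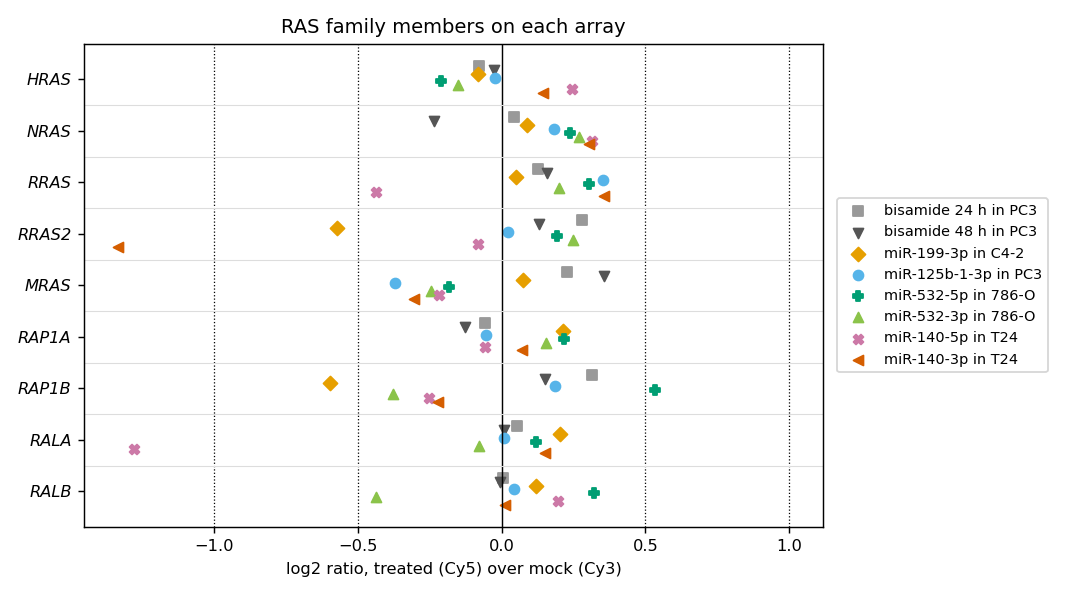
Log2 ratio of treated (Cy5) over mock (Cy3) signal, on the x axis, for the 9 RAS family genes, on the y axis; each symbol is 1 array and dotted lines mark 0.5 and 1.0 in either direction. *RRAS2* with miR-140-3p (−1.33) and *RALA* with miR-140-5p (−1.28) are the 2 points beyond 1.0.

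*RRAS2*, also called TC21, is an R-RAS branch GTPase with transforming activity. Its log2 ratio was 0.28 and 0.13 with bisamide for 24 h and 48 h and 0.02 with miR-125b-1-3p in PC3, and −0.57 with miR-199-3p in C4-2. In 786-O it was 0.19 for the 5p and 0.25 for the 3p strand of miR-532, and in T24 it was −0.08 for the 5p and −1.33 for the 3p strand of miR-140. Only the miR-140-3p and miR-199-3p arrays stood below −0.5, and the other 6 values lay between −0.08 and 0.28. With miR-140-3p the raw signals were 539 in the mock channel and 335 in the treated channel, and with miR-140-5p in the same line they were 523 and 814. The mock signals of the 2 arrays were thus close, and the treated signals were not. The ratio of −1.33 corresponds to a 2.52-fold lower level and was the 3rd lowest among 17533 genes on that array. The second *RRAS2* probe gave −1.31 with miR-140-3p and −0.51 with miR-199-3p, and over all 8 arrays the 2 probes differed by at most 0.092.

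In C4-2, where the raw *RRAS2* signals were 131 in the mock and 110 in the treated channel, the ratio was −0.57, and 2.11% of genes on that array lay below it. For scale, probes printed as 10 spots had a median SD of 0.039 to 0.053 within an array, which covers the spread between spots and not between cultures.

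*RALA*, which drives exocyst-dependent membrane delivery, was lower with the other strand of the same miRNA. Its log2 ratio in T24 was −1.28 for the 5p strand, 2.43-fold lower, and 0.15 for the 3p strand. On the other 6 arrays it lay between −0.08 (miR-532-3p) and 0.20 (miR-199-3p). The raw mock signals of the 2 T24 arrays were 136 and 135, and the raw treated signals were 54.4 for the 5p and 243 for the 3p strand. *RALA* was 25th from the lowest of 17624 genes with miR-140-5p. *RALB*, the close relative of *RALA*, stood at 0.20 and 0.01 on these 2 arrays. Both low values kept their sign under every alternative processing tried, between −1.58 and −0.68 for *RRAS2* and between −2.32 and −0.95 for *RALA*. The weakest values came from median centring in place of loess, which put the median of all genes at 0.45 and 0.35 on these arrays, and relative to that median *RRAS2* was at −1.13 and *RALA* at −1.30.

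**Figure D2:**
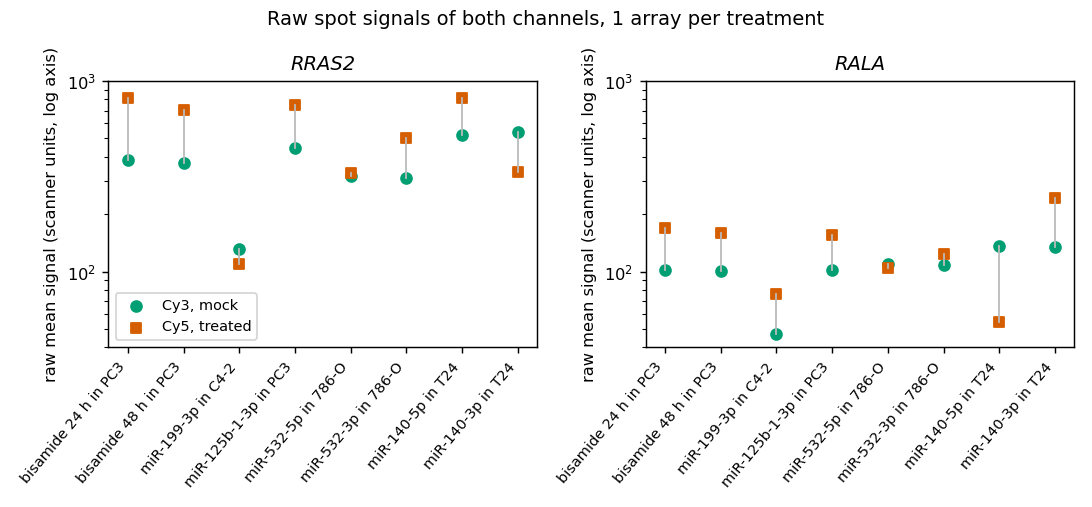
Raw mean spot signal (log axis, scanner units) of *RRAS2* and *RALA* in the mock (Cy3, circles) and treated (Cy5, squares) channel of each array. The treated signal of *RRAS2* is below its mock signal with miR-140-3p (335 against 539) and miR-199-3p (110 against 131), and that of *RALA* with miR-140-5p (54.4 against 136) and, slightly, with miR-532-5p.

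**Figure D3:**
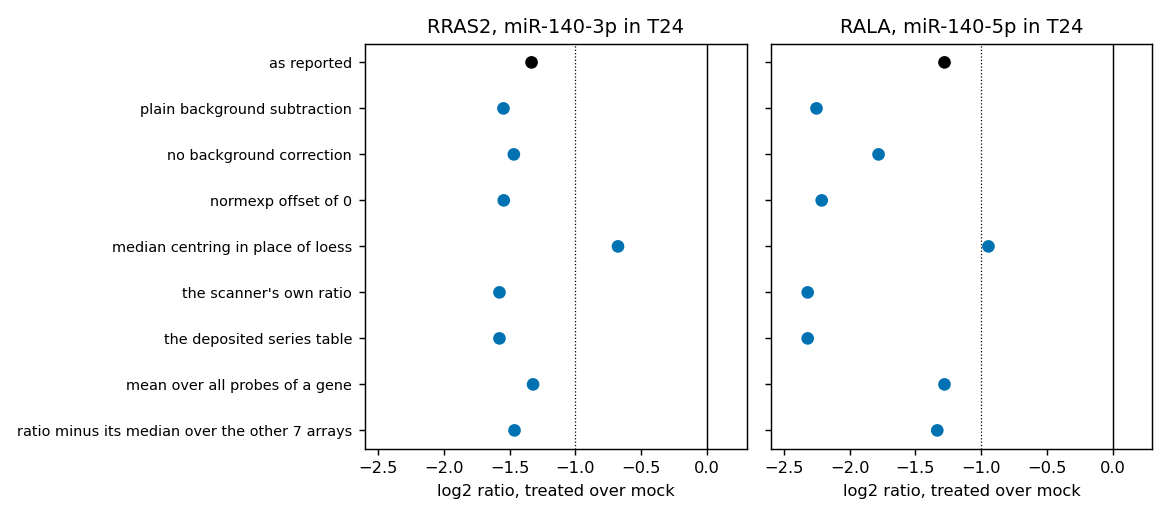
Log2 ratio, on the x axis, of *RRAS2* with miR-140-3p and of *RALA* with miR-140-5p under the processing as reported (black) and 8 alternatives (blue), 1 per row; the dotted line marks −1.0. All 18 points lie below 0, and those of median centring, −0.68 and −0.95, are closest to it.

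*RAP1B*, the main RAP1 isoform in platelets and a regulator of integrin adhesion, had the widest span of the members that stayed within 1.0. Its log2 ratio was −0.60 with miR-199-3p, and in 786-O it was 0.53 for the 5p and −0.38 for the 3p strand of miR-532, on opposite sides of 0. In PC3 it was 0.31 and 0.15 with bisamide for 24 h and 48 h and 0.19 with miR-125b-1-3p, and in T24 it was −0.25 for the 5p and −0.22 for the 3p strand of miR-140. The second *RAP1B* probe gave −0.63 in C4-2, and 0.43 and −0.47 for the 5p and 3p strands in 786-O. With median centring the miR-532-3p value was 0.13, the values in T24 were 0.63 and 0.70, and miR-199-3p stood at −0.04. Relative to the median of all genes these were −0.05, 0.27, 0.25 and −0.34, so the negative signs in T24 depended on the normalization. *RAP1A*, its near-identical relative, stayed between −0.13 and 0.22 on all 8 arrays.

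Of the classical members, *HRAS* ranged from −0.21 (miR-532-5p) to 0.25 (miR-140-5p), and its 10 spots had an SD of 0.027 to 0.071 on an array. The 10 spots lay between −0.37 and −0.15 with miR-532-5p and between 0.19 and 0.30 with miR-140-5p. These 2 arrays were picked as the lowest and the highest, in different lines. Spots on an array share 1 hybridisation, so their separation is no test of a difference. With median centring *HRAS* was at 0.91 and 0.87 for the 5p and 3p strands of miR-140, or 0.56 and 0.42 relative to all genes. Its sign changed on 5 of the other 6 arrays. Relative to the median of all genes it stayed below 0 with miR-532-3p (−0.07), while on the PC3 and C4-2 arrays its direction depended on the normalization. *NRAS* ranged from −0.24 (bisamide, 48 h) to 0.32 (miR-140-5p) and was above 0 on the other 7 arrays. Its second probe was at −0.15 with bisamide for 48 h and at 0.21 with miR-140-5p, and on 1 array, bisamide for 24 h, the 2 probes had opposite signs (0.04 and −0.12). With median centring *NRAS* was at 0.18 for bisamide at 48 h, where the median of all genes was at 0.44, and at 0.87 and 0.93 for the 5p and 3p strands of miR-140, or 0.52 and 0.48 relative to all genes.

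Among the other R-RAS members, *RRAS*, which acts on integrin activation, was at −0.44 for the 5p strand of miR-140 and at 0.36 for the 3p strand. Its raw treated signals in T24 were 665 and 1360 beside mock signals of 558 and 590. On the other 6 arrays *RRAS* lay between 0.05 and 0.35, and with median centring its miR-140-5p value was 0.20, or −0.15 relative to all genes. *MRAS*, a subunit of the SHOC2 phosphatase complex that activates RAF, was at 0.23 and 0.36 with bisamide, at 0.08 with miR-199-3p and between −0.37 and −0.18 on the other 5 arrays. With median centring the sign of *MRAS* turned on 4 of these 5, with values of 0.03 to 0.09, while all 5 stayed below the median of all genes. *RALB*, a RAL GTPase tied to innate signalling through the exocyst, stood at 0.32 for the 5p strand of miR-532 and at −0.44 for the 3p strand, and within 0.20 of 0 on the other 6 arrays.

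Genes whose 8 ratios were nearest to those of *RRAS2* were ranked by root-mean-square difference over 10071 genes well above background throughout. The nearest was *PREPL*, a serine hydrolase gene, at a root-mean-square difference of 0.247, followed by *ATP6V1D*, a proton pump subunit (0.280), *SLCO4A1*, an organic anion transporter (0.311), *GOLT1B*, a Golgi transport gene (0.312), and *ZFAS1*, a host of small nucleolar RNAs (0.318). With miR-140-3p their log2 ratios were −1.16, −0.80, −0.92, −0.81 and −0.62. The ranking used this array too, so these low values follow from the selection and are no separate finding. *PREPL* was at 0.05 with miR-199-3p, where *RRAS2* was at −0.57.

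The second comparison asked how the 9 genes differed between the lines before treatment. Mock levels are log2 Cy3 signals after quantile normalization of the 8 mock channels. Median raw Cy3 signals were 90.2 to 100 in PC3, 67.6 in C4-2, 66.9 and 68.5 in 786-O, and 91.3 and 95.8 in T24. Differences of C4-2 and 786-O from PC3 thus include an adjustment for dimmer channels. The fit had 3 PC3 channels and 1 sample for each other line, whose 2 channels (786-O, T24) were averaged, so the spread comes from PC3 and the other lines were assumed to vary like it. The labels do not say that the PC3 mocks were separate cultures, so the p-values may measure a technical spread. Values below give the mean log2 level and the log2 difference ± SE of limma, with p-values adjusted over 22625 genes.

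Of the 9 members, 3 differed between C4-2 and PC3, against 45.6% of all genes, 6 between 786-O and PC3, against 33.8%, and 6 between T24 and PC3, against 29.0%. *HRAS* and *NRAS* were called in all 3 comparisons, *NRAS* always as higher than in PC3. Between the other lines, 5 members differed between 786-O and C4-2 (36.8% of all genes), 6 between T24 and C4-2 (37.3%) and 3 between T24 and 786-O (22.9%). Without the second PC3 mock, that of the bisamide 48 h array, the counts against PC3 were 1 for C4-2, 4 for 786-O and 1 for T24. *NRAS* was the member left in C4-2 and in T24. The share of all genes fell too, to 31.3% in C4-2 and 17.2% in 786-O. In T24 1644 of 22625 genes were then called as higher and 1291 as lower. Beside these counts, 1 of 9 members does not set the family apart from all genes in T24. Without the third PC3 mock, *RRAS2* and *RAP1A* were called in C4-2 as well (5 members, against 49.2% of all genes). *RAP1A* was also called in 786-O, where 7 members were then called, against 38.8% of all genes. Scaling to the 75th percentile moved the median of all genes by 0.19 in C4-2 and 0.14 in 786-O relative to PC3. It gave 7, 5 and 4 members, with *RRAS*, *RRAS2*, *RALA* and *RALB* also called as lower in C4-2. With that scaling 70.2% of all genes were called in C4-2, 68.3% in 786-O and 30.7% in T24.

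**Figure D4:**
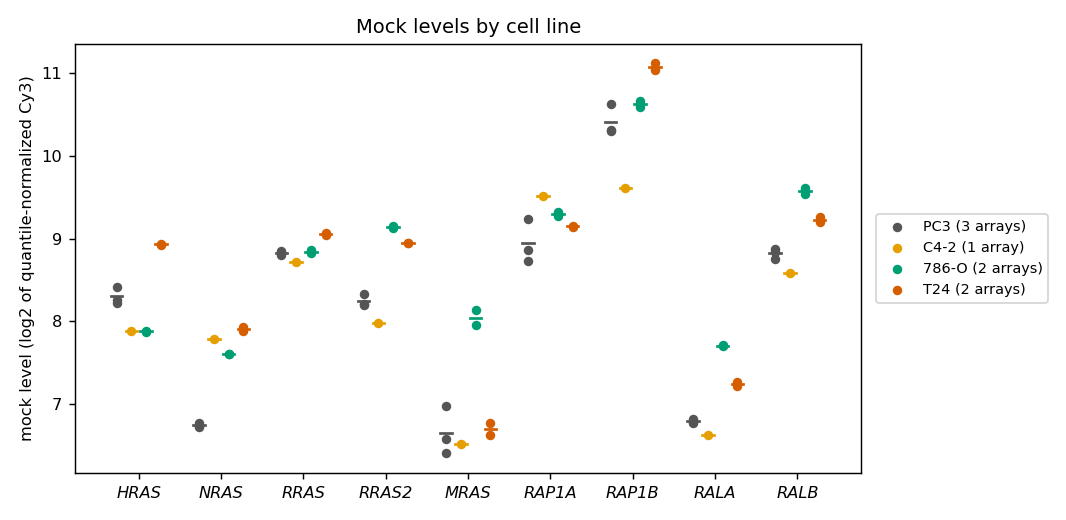
Mock level (log2 of quantile-normalized Cy3 signal, y axis) of the 9 genes in the 4 lines; each point is 1 array and the bar is the mean of a line. *NRAS* is lowest in the 3 PC3 arrays (6.73 to 6.78) and at 7.61 or above in every other line.

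*NRAS*, a mediator of growth factor signalling to RAF, had the lowest level in PC3. Its mean level was 6.75 ± 0.03 (SD, n = 3) in PC3, 7.78 in C4-2, 7.61 in 786-O and 7.91 in T24. The raw Cy3 signals before normalization were 92.8 to 101 in PC3, 113 in C4-2, 101 in 786-O and 243 to 245 in T24. The sizes in C4-2 and 786-O thus rest largely on the normalization between channels. Every other line was higher than PC3, by 1.03 ± 0.05 in C4-2 (adjusted p = 0.00129), 0.86 ± 0.05 in 786-O (adjusted p = 0.00290) and 1.16 ± 0.05 in T24 (adjusted p = 0.00262). T24 was also higher than 786-O (adjusted p = 0.0450), and C4-2 passed the test against neither of the other two. These 3 calls against PC3 held in all 9 alternatives, while their sizes fell to 0.65 in C4-2 and 0.53 in 786-O with scaling to the 75th percentile and rose to 1.58, 1.35 and 1.74 in the 3 lines with plain background subtraction.

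*HRAS* was highest in T24. Its mean level was 8.30 ± 0.10 (SD, n = 3) in PC3, 7.88 in C4-2, 7.88 in 786-O and 8.93 in T24. T24 was above PC3 by 0.63 ± 0.09 (adjusted p = 0.0190) and above 786-O by 1.05 ± 0.11 (adjusted p = 0.0134). C4-2 and 786-O were both lower than PC3, each by 0.42 ± 0.09 (adjusted p = 0.0321 and 0.0409), and differed from each other by less than 0.01. Without the second PC3 mock none of these 3 calls against PC3 held, and without the first that of 786-O was lost as well. Of the 9 alternatives, the call held in 7 for C4-2, in 5 for 786-O and in 8 for T24. With scaling to the 75th percentile C4-2 stood 1.05 and 786-O 1.04 below PC3 (adjusted p = 0.00348 and 0.00425).

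*RRAS2* was higher in the renal and bladder lines than in the prostate lines. Its mean level was 8.25 ± 0.07 (SD, n = 3) in PC3, 7.98 in C4-2, 9.14 in 786-O and 8.95 in T24. Before normalization its raw Cy3 signals were 374 to 443 in PC3 and 310 to 319 in 786-O, so the direction in 786-O rests on the normalization. It was higher than in PC3 by 0.89 ± 0.07 in 786-O (adjusted p = 0.00546) and by 0.70 ± 0.07 in T24 (adjusted p = 0.0100), and 786-O and T24 did not pass the test against each other (adjusted p = 0.220). The T24 call was lost without the second PC3 mock (adjusted p = 0.0520). C4-2 was the lowest of the 4 lines and did not pass it against PC3 (adjusted p = 0.0565). Scaling to the 75th percentile left 786-O only 0.17 above PC3 (adjusted p = 0.201), and T24 0.52 above it (adjusted p = 0.0267). T24, in which miR-140-3p was tested, and C4-2, in which miR-199-3p was tested, thus held the second highest and the lowest mock level of *RRAS2*.

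Both RAL genes followed the same order of lines. *RALA* had a mean level of 6.79 ± 0.02 (SD, n = 3) in PC3, 6.63 in C4-2, 7.71 in 786-O and 7.25 in T24, and *RALB* of 8.82 ± 0.06 (SD, n = 3) in PC3, 8.58 in C4-2, 9.57 in 786-O and 9.22 in T24. For *RALA*, 786-O was above PC3 by 0.92 ± 0.05 (adjusted p = 0.00256), T24 was above PC3 by 0.45 ± 0.05 (adjusted p = 0.0101), and T24 was below 786-O (adjusted p = 0.0182). For *RALB*, 786-O was above PC3 by 0.75 ± 0.07 (adjusted p = 0.00640) and T24 by 0.40 ± 0.07 (adjusted p = 0.0253). Raw Cy3 signals of *RALA* before normalization were 101 to 102 in PC3 and 108 to 109 in 786-O, so its size there rests largely on the normalization. C4-2 was lowest for both and did not pass the test against PC3. Both T24 calls were lost without the first or without the second PC3 mock. With scaling to the 75th percentile *RALB* in 786-O stood 0.01 below PC3, so its direction there depended on the scaling, and in T24 0.20 above it (adjusted p = 0.236), whereas *RALA* in 786-O stayed 0.56 above PC3 (adjusted p = 0.00492). Plain background subtraction put *RALA* 1.40 above PC3 in 786-O and 0.75 in T24.

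Of the RAP1 genes, 1 differed from PC3 in 1 line. *RAP1B* had a mean level of 10.41 ± 0.19 (SD, n = 3) in PC3, 9.61 in C4-2, 10.63 in 786-O and 11.07 in T24, and C4-2 was lower than PC3 by 0.80 ± 0.16 (adjusted p = 0.0258), while T24 at 0.66 ± 0.16 above PC3 did not pass the test (adjusted p = 0.0566). Without the second PC3 mock the *RAP1B* call in C4-2 was lost (adjusted p = 0.0612), and with scaling to the 75th percentile C4-2 stood 1.55 below PC3 (adjusted p = 0.00386). *RAP1A* had a mean level of 8.94 ± 0.27 (SD, n = 3) in PC3, 9.52 in C4-2, 9.30 in 786-O and 9.15 in T24 and passed no test between lines, with adjusted p from 0.120 to 0.765. Its 3 PC3 mocks spanned 8.73 to 9.24, which covered the mean of T24 but not those of C4-2 and 786-O.

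Of the other R-RAS members, *MRAS* was highest in 786-O. Its mean level was 6.66 ± 0.29 (SD, n = 3) in PC3, 6.52 in C4-2, 8.05 in 786-O and 6.71 in T24. Raw Cy3 signals of *MRAS* before normalization were 63.0 to 128.5 in PC3 and 129.0 to 145.7 in 786-O. The size in 786-O thus rests in part on the normalization. 786-O was above PC3 by 1.39 ± 0.25 (adjusted p = 0.0259) and above C4-2 (adjusted p = 0.0305), and the other 3 lines differed by at most 0.18. The call against PC3 was lost without the first or without the second PC3 mock, and plain background subtraction gave a difference of 2.13. *RRAS* was the most even, with a mean level of 8.83 ± 0.02 (SD, n = 3) in PC3, 8.71 in C4-2, 8.84 in 786-O and 9.05 in T24. T24 was above PC3 by 0.22 ± 0.05 (adjusted p = 0.0424), a call that was lost without any 1 of the PC3 mocks and with scaling to the 75th percentile (0.01, adjusted p = 0.909). That scaling put *RRAS* 0.73 lower in 786-O than in PC3 (adjusted p = 0.00338), against 0.01 higher as reported.

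Genes that act with the RAS family were read in 7 lists with 121 symbols, 120 of them on the array. Counts below are of genes well above background in both channels, summed over the 8 arrays, on which 3.60% of all values lay beyond 0.5 in either direction. Among the other RAS family GTPases 4 of 108 values were below −0.5 and 2 above 0.5. They included *RRAD*, a calcium channel regulator, at −0.76 and *RHEBL1*, an activator of mTORC1, at −0.60 with miR-532-5p, and *RASL10A* at −0.62 with miR-140-3p. Among adaptors, the docking protein gene *SHC1* was the 1 value of 59 beyond 0.5, at −0.53 with miR-140-5p, followed by *PTPN11*, the SHP2 phosphatase, at −0.38 with miR-532-3p and *GAB2* at 0.35 with miR-125b-1-3p. None of 103 values of exchange factors passed 0.5, and the nearest were *RAPGEF2* at 0.49 with miR-532-5p, *RAPGEF1* at −0.44 with miR-140-5p and *RALGDS*, which activates the RAL proteins, at 0.43 with miR-199-3p.

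Among GTPase-activating proteins 2 of 106 values were below −0.5 and 1 above 0.5. *RASA3* was at 0.70 and *SIPA1L2* at −0.69 with miR-532-5p, and *RALGAPB*, a subunit of the complex that turns RAL off, was at 0.41 with miR-140-5p. Among effectors and scaffolds 1 of 133 values passed 0.5. This was *MAP2K1*, which encodes the kinase MEK1, at −1.12 with miR-532-3p, with raw signals of 202 in the mock and 95.0 in the treated channel. On the other 7 arrays *MAP2K1* lay between −0.26 and 0.19. *RIN1* and *APBB1IP*, a RAP1 effector, followed at −0.41 and −0.40 with miR-532-5p. Of 88 values of lipid processing and transport genes 1 was below −0.5 and 3 above 0.5, among them *LYPLA1*, a depalmitoylating enzyme, at 0.70 and *RAP1GDS1*, a chaperone of RAS family proteins, at −0.65 with miR-140-5p, and *LYPLA2* at 0.64 with miR-199-3p.

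The genes that ERK signalling induces, and the feedback inhibitors among them, were read as a measure downstream of RAS. With miR-140-3p, where *RRAS2* was lowest, none of the 17 measured genes of this list passed 0.5, against 2.09% of all genes. At that share, none of 17 does not set the list apart from all genes. Their median was 0.02. With miR-140-5p, where *RALA* was lowest, 2 of 17 were above 0.5, against 307 of 17624 genes on that array. The median of the 17 was 0.15, beside 0.01 over all genes. The 2 above 0.5 were *EMP1*, a membrane protein gene, at 1.14, and *SPRY4*, a feedback inhibitor, at 0.71. Raw signals of *EMP1* were 39.7 in the mock and 173 in the treated channel. *CCND1*, which encodes cyclin D1, was at −0.63 with miR-532-5p. Over all 8 arrays 2 of 119 values were below −0.5 and 4 above 0.5.

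Between mock cells most called genes of the ERK output list were lower in the other 3 lines than in PC3. In C4-2, 15 of its 18 genes were lower and none higher, in 786-O 13 were lower and 3 higher, and in T24 9 were lower and 2 higher, beside 20.8% of all 22625 tested genes lower and 24.8% higher in C4-2, 15.5% and 18.3% in 786-O and 12.6% and 16.4% in T24. The median log2 differences were −1.89, −0.87 and −0.47, and those of all genes lay within 0.02 of 0. In C4-2 14 of the 18 genes were not well above background, and the median over the 17 genes measured in at least 1 of the 2 lines, with such genes at their bound, was −1.91. *DUSP6*, the ERK phosphatase, was at least 18.4-fold lower in C4-2 (adjusted p = 0.00127), 5.39-fold lower in 786-O (adjusted p = 0.00536) and 2.48-fold lower in T24 (adjusted p = 0.0201). *EMP1* was at least 35.7-fold lower in C4-2 (adjusted p = 0.00253), and *IER3*, a survival gene, at least 24.7-fold lower there (adjusted p = 0.000515). A bound sets the mean level in PC3 against the higher of the dim gene's own signal and the lowest signal well above background in C4-2. Under the 9 alternatives 14 or 15 genes were lower in C4-2, 10 to 13 in 786-O and 7 to 11 in T24. These counts were lowest in 786-O and T24 without the second PC3 mock.

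**Figure D5:**
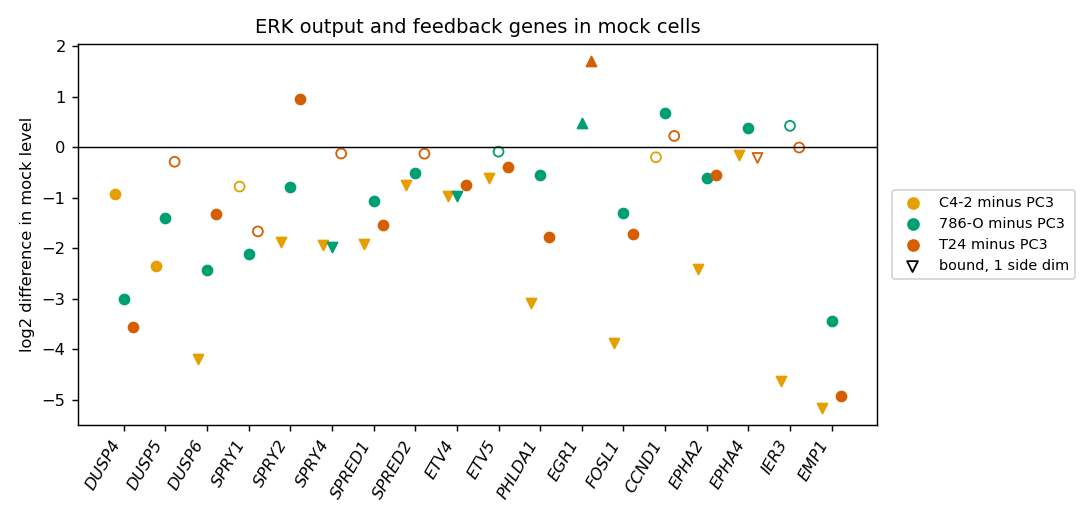
Log2 difference in mock level from PC3 (y axis) of the 18 genes of the ERK output list in C4-2, 786-O and T24; filled symbols passed an adjusted p of 0.05, circles are measured in both lines and triangles are bounds where 1 line was not well above background. *EGR1* has no C4-2 point because it was dim in both lines, and most C4-2 points are bounds below 0.

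The other 6 lists held 89 tested genes. Of these, 53 differed between C4-2 and PC3, or 59.6% against 45.6% of all genes, 38 between 786-O and PC3, or 42.7% against 33.8%, and 41 between T24 and PC3, or 46.1% against 29.0%. Without the first PC3 mock the counts were 37, 24 and 18, and without the second 39, 24 and 16. By list, with all PC3 mocks, 12 of 17 other RAS family GTPases differed from PC3 in C4-2, 8 in 786-O and 8 in T24. The counts in the same order were 5, 3 and 4 of 8 adaptors, 7, 4 and 7 of 16 exchange factors, 7, 4 and 7 of 17 GTPase-activating proteins, 14, 12 and 12 of 20 effectors, and 8, 7 and 3 of 11 lipid processing genes. The median differences of these lists from PC3 lay between −0.24 and 0.20 in the 3 lines, between −0.68 and 0.38 with scaling to the 75th percentile and between −0.64 and 0.45 with plain background subtraction.

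In T24 7 of 16 exchange factors were higher than in PC3 and none lower, against 16.4% of all genes higher. Without the first or without the second PC3 mock 1 of 16 was higher (8.48% and 7.27% of all genes), and with the mean over all probes 4. Among the 7 was *RASGRP2*, an activator of RAP1, at least 3.10-fold higher (adjusted p = 0.00162).

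Among the genes that the rule named in these lists, the widest range of mean mock levels was that of *RIN1*, a RAB5 exchange factor and RAS effector, at least 14-fold lower in C4-2 than in PC3, followed by *APBB1IP*, at least 10.3-fold higher in 786-O, *RRAD*, at least 7.52-fold higher in 786-O, and *RASD1*, 5.66-fold higher in C4-2. Next came *TIAM1*, a RAC exchange factor, at least 6.80-fold lower in 786-O, *RHEBL1*, 2.19-fold higher in T24 and 2.85-fold lower in C4-2, *RASA3*, 3.32-fold lower in C4-2, and *SHC1*, 5.74-fold higher in T24 (adjusted p from 0.000411 to 0.0196 for these 8 genes). The rule also named *GRB2*, *CRK*, *RGL3*, *RALGDS*, *RASA4*, *RALGAPA1*, *LYPLA1*, *LYPLA2* and *ICMT*, whose mean levels spanned from 1.02 (*RALGAPA1*) to 1.40 (*LYPLA1*) on the log2 scale between the highest and the lowest line.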

How the data were processed

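RNA of treated and mock cells was hybridised to 8 two-colour Agilent arrays on 1 slide in 1 scan, so no batch could be tested. The deposited scanner files hold the mean intensity of each spot and its median background in each channel, read by the authors with Agilent Feature Extraction 11.5.1.1 and not normalized. Per the file headers a log10 ratio of Cy5 over Cy3, background-subtracted and dye-normalized, stands beside them, and the deposited series table held the same log10 ratio (largest difference 0). Groups came from the treatment in the labels.

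Intensities were corrected with normexp (offset 50) in limma 3.58.1 (R 4.3.3) and normalized by loess within each array, giving a log2 ratio. Control and outlier spots were left out, spots of a probe were averaged, and a gene was represented by its brightest probe (mean log2 intensity over all channels). Counts used genes well above background in both channels and sizes of 0.5 and 1.0. On simulated data a true log2 ratio of −1 or 1 came out as −0.77 or 0.89. The source of this shrinkage was not tested. The number of arrays limits the precision.

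Mock levels came from Cy3 after normexp, log2 and quantile normalization, and were tested with lmFit and eBayes of limma in 6 contrasts (3.75 total degrees of freedom), with Benjamini-Hochberg adjustment over 22625 genes well above background in at least 1 mock channel and a threshold of 0.05. On simulated data this fit called 28 of 100 genes differing by 1 and 68 of 100 differing by 2 on the log2 scale.

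The named genes were the 9 members, per pathway list up to 3 genes with the largest ratio and up to 3 with the widest range of mock levels among those called, the 5 genes nearest to *RRAS2*, and *KLK3*. The members, lists and tests were chosen with earlier results of these data known. Genes carry the names of the array's own annotation, and RefSeq (GRCh38.p14) served for names and miRNA sequences. A further gene that the family would hold is not reported here. The alternatives were other background corrections, median centring, the scanner's own ratio, the deposited table, the mean over probes, other filters, a size of 0.5, each ratio minus its median over the other 7 arrays, and, for mock levels, scaling to the 75th percentile, separate mock channels and leaving out each PC3 mock.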

Additional observations from a re-analysis of the deposited data

How the results depend on the processing

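The *RRAS2* log2 ratio with miR-140-3p, −1.33 as reported, was −1.55 with plain background subtraction, −1.47 with no background correction, −1.54 with a normexp offset of 0, −0.68 with median centring in place of loess, −1.58 with the scanner's own ratio and in the deposited series table, and −1.46 after subtracting its median over the other 7 arrays. Member ratios past 1.0 numbered 2, and 5 with a threshold of 0.5. With median centring 3 passed 1.0, all of them higher and none of them the 2 reported (*RRAS* with miR-125b-1-3p at 1.02 and with miR-140-3p at 1.11, and *RAP1B* with bisamide for 24 h at 1.18); it put the median of all genes between −0.03 and 0.45 and changed the sign of 21 of 72 member values, 13 of 72 when taken relative to that median. None of the 5 values beyond 0.5 changed sign under any alternative run.

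Members differing between mock C4-2 and PC3 numbered 3 as reported, 7 with scaling to the 75th percentile and 7 with mock channels as separate samples. The shares of all genes called in these settings were 45.6%, 70.2% and 56.6%. Leaving out each PC3 mock in turn gave 1 to 5 members for C4-2, 4 to 7 for 786-O and 1 to 5 for T24. Of all genes, 31.3% to 49.2% were then called for C4-2, 17.2% to 38.8% for 786-O and up to 34.4% for T24. The fewest for T24, without the second PC3 mock, were 1644 higher and 1291 lower of 22625 genes. Differences from PC3 that changed sign under scaling to the 75th percentile were *RAP1A* in C4-2 (−0.16), *RRAS* (−0.73), *RAP1A* (−0.40), *RAP1B* (−0.54) and *RALB* (−0.014) in 786-O, and *RAP1A* in T24 (−0.00431); leaving out each PC3 mock, *MRAS* ranged from −0.26 to 0.028 in C4-2 and from −0.075 to 0.21 in T24. The cause was not tested. No paired analysis was possible because each treatment had 1 array.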
